A study of Homo sapiens with 24 samples.

Results

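Chondrocytes under hyperosmotic sorbitol (WT Sor, 4 libraries) were compared with the 4 isotonic libraries labelled WNK2 trans Ctr, 8 of the 24 RNA-seq libraries of the series. The pair was chosen by its WNK2 counts, since both groups held few reads of this kinase gene, which the second group is labelled as overexpressing. All cells were T/C-28a2, an immortalised human chondrocyte line of wild-type genotype in both groups. By the study's methods, WT Sor cells were not transfected and were kept for 7 days in medium brought to 400 mOsm with 100 mM sorbitol. WNK2 trans Ctr cells are described as given a WNK2 expression plasmid with Lipofectamine 2000 for 48 hours and then fresh isotonic medium (300 mOsm) for 7 days. No group is described as given an empty plasmid. By the labels sorbitol and transfection thus differed together between the 2 groups, and their parts in any difference cannot be told apart. The other groups used for reference were isotonic cells labelled Control (WT Ctr) and cells labelled as transfected and given sorbitol (WNK2 trans Sor). The last were a single CRISPR/Cas9 clone without intact WNK2, isotonic (WNK2- Ctr) or in sorbitol (WNK2- Sor). Each group had 4 libraries labelled as separate replicates.

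A hyperosmotic medium draws water out of cells. Shrunken cells take up sodium, potassium and chloride through the cotransporter SLC12A2, which WNK kinases switch on through the kinases SPAK (STK39) and OSR1 (OXSR1). Over hours to days the transcription factor NFAT5 then raises genes that make or import small organic osmolytes, among them AKR1B1, which makes sorbitol from glucose, and SLC6A12, which imports betaine. Chondrocytes meet such conditions in cartilage, whose charged matrix holds cations and water and whose osmolarity changes with load and with osteoarthritis.

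WNK2 counts chose the groups and are given as a description. The WT Sor libraries held 266, 267, 314 and 277 WNK2 counts, and those labelled WNK2 trans Ctr held 238, 290, 163 and 253. WNK2 was thus at 16.9 ± 1.18 CPM in WT Sor and 13.2 ± 3.04 CPM in WNK2 trans Ctr (SD, n = 4), against 133 ± 47.3 CPM in WT Ctr, 172 ± 38.1 in WNK2 trans Sor, 21.6 ± 0.563 in WNK2- Ctr and 20.2 ± 2.59 in WNK2- Sor. WNK2 was therefore low in the isotonic libraries labelled as transfected, against their label. It was high in WT Ctr, which is labelled Control and was taken as not transfected. The study's own summary of WNK2 reads differs from these counts. It reports no significant change with sorbitol or transfection in wild-type cells, whereas WT Sor and WNK2 trans Ctr were both far below WT Ctr here. Whether the labels of the 2 isotonic groups were exchanged cannot be told from these data. If they were, only sorbitol would differ between the 2 groups compared here, and each value against WT Ctr would be one against transfected cells. Both names are used only as the labels give them.

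Total counts ran from 14979799 to 17588934 in WT Sor and from 15178553 to 23239491 in WNK2 trans Ctr. WNK2 trans Ctr replicate 3 stood apart from the other libraries of its group, with counts that differed from theirs by a chi-square of 24.7 to 48.9 per degree of freedom (5.95 to 11.5 among the other 3, and 2.25 to 4.77 among the WT Sor libraries). Of 28 cartilage matrix genes, 16 were counted often enough to test, and SOX9, COL10A1 and CHAD were counted at 0 in all 8 libraries. COL2A1 and ACAN, the defining cartilage collagen and proteoglycan, were present at 40 to 224 and 90 to 179 counts per library. In counts of this kind a gene that overlaps another can lose its reads, so a 0 is not read as absence.

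With edgeR's quasi-likelihood test 2499 of 16599 genes (15.1%) passed an adjusted p of 0.05, of which 1451 (8.74%) were higher in WT Sor and 1048 (6.31%) lower. Counts of called genes in each list below are to be read beside these shares of all tested genes. A change of at least 2-fold was seen in 656 of the higher genes (3.95% of all tested) and 88 of the lower ones (0.53%). The median log2 fold change over all tested genes was -0.00135. When a trend with GC content and transcript length was removed from each library, 2129 genes were higher and 2032 lower. Counts per gene list without WNK2 trans Ctr replicate 3 are given below wherever they differ, and those with this trend removed where either count moved by over 1.5 times or from 0. Normalized counts, used below, are counts scaled to the mean effective library size, and they compare a gene between libraries, not genes with each other. A log2 fold change (log2FC) above 0 means more in the first group named, which is WT Sor unless another is given. Errors of log2 fold changes are standard errors, and errors of normalized counts are SDs over 4 libraries. A lack of overlap between the libraries of both groups is given only as a description. Genes that were not called, such as ACAN, COMP and TRPV4, showed it too.

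**Figure D1:**
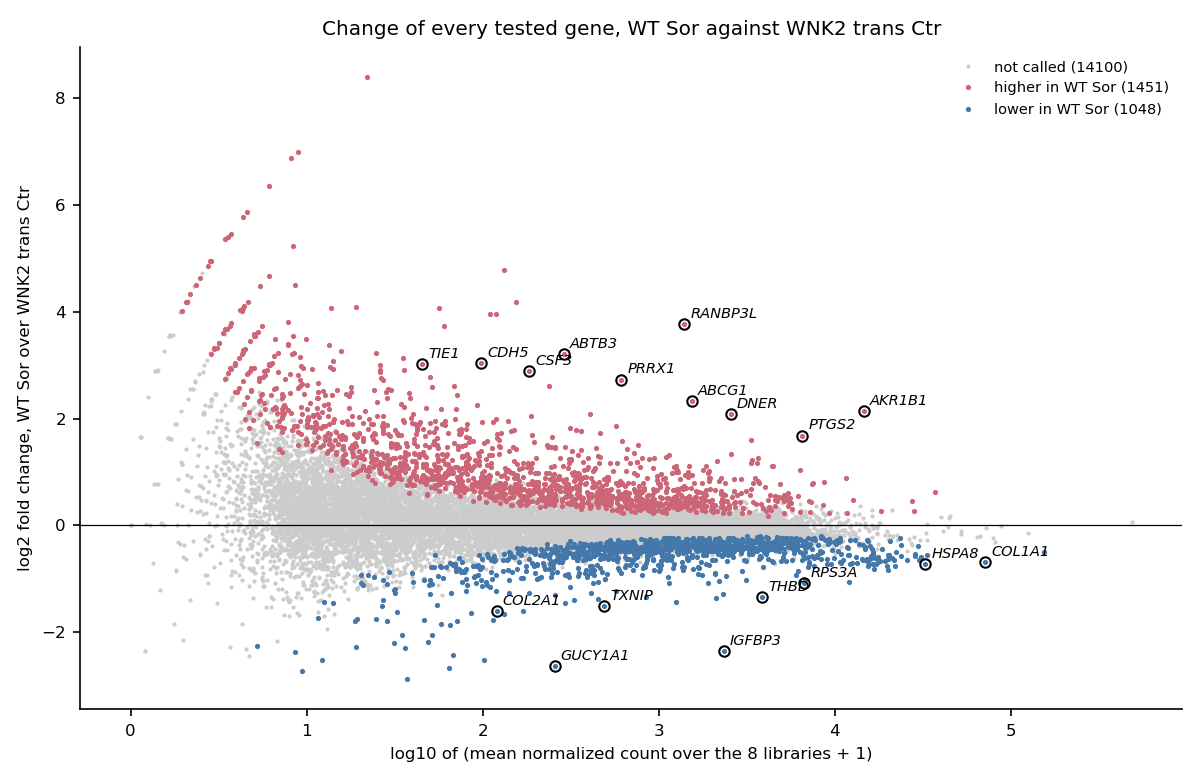
Log2 fold change of each tested gene between WT Sor and WNK2 trans Ctr (vertical axis) against the log10 of its mean normalized count plus 1 over the 8 libraries (horizontal axis). Changes of at least 2-fold number 656 among the 1451 higher genes (red) and 88 among the 1048 lower genes (blue), and AKR1B1 stands out among the most abundant genes with a log2 fold change of 2.14.

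The well expressed genes with the greatest rises, picked only where no library overlapped between the groups, included transcription factors, transporters and secreted or membrane proteins. RANBP3L, a Ran-binding exporter of SMAD proteins (GRCh38 chr5:36248434-36302114), had normalized counts of 2429, 2137, 3243 and 2589 in WT Sor and 267, 147, 146 and 209 in WNK2 trans Ctr (log2 fold change 3.77 ± 0.23, adjusted p = 9.51e-12). Each WT Sor library held several times the count of the highest WNK2 trans Ctr library, and WT Ctr held 233 ± 35.1. PRRX1, a homeobox factor of limb mesenchyme (chr1:170662728-170739419), counted 1091, 987, 1107 and 1059 in WT Sor and 172, 159.8, 129 and 179 in WNK2 trans Ctr, a 6.63-fold rise (log2 fold change 2.73 ± 0.11, adjusted p = 1.20e-14). For ABCG1, a sterol exporter, the counts were 2418, 2483, 2680 and 2690 in WT Sor and 557, 456, 491 and 552 in WNK2 trans Ctr (log2 fold change 2.32 ± 0.10, adjusted p = 1.61e-14).

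Other strongly raised genes were DNER, a membrane protein with EGF repeats (log2FC 2.09, adjusted p = 5.88e-15), ABTB3 (log2FC 3.21, adjusted p = 4.34e-12) and CEMIP, which breaks down hyaluronan (log2FC 2.09, adjusted p = 5.32e-07). LAMP3, a lysosomal membrane protein, rose 4.16-fold and FBXO2, which marks glycoproteins for degradation, 3.61-fold. MCHR2-AS1 (log2FC 2.61, adjusted p = 6.74e-10) is an antisense RNA, and since the strand setting of the counting is not given in the sources used here its reads cannot be told from those of its partner. Among less abundant genes, chosen after their values were seen, PRSS35, a secreted serine protease homologue, counted 276, 293, 332 and 256 in WT Sor and 22.4, 7.37, 13.5 and 23.0 in WNK2 trans Ctr (log2 fold change 4.17 ± 0.26, adjusted p = 2.30e-11). It was also low in WT Ctr (13.0 ± 2.14), and in WNK2- cells sorbitol moved it by 4.73 on the log2 scale. MYH15, a myosin heavy chain, and TENM4, a teneurin, had log2 fold changes of 4.07 ± 0.30 and 3.97 ± 0.29.

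Among well expressed genes without overlap between the groups, the greatest falls were smaller. IGFBP3, which binds and restrains insulin-like growth factors (chr7:45912245-45921874), had normalized counts of 842, 744, 732 and 725 in WT Sor and 3473, 4036, 4544 and 3576 in WNK2 trans Ctr (log2 fold change -2.36 ± 0.11, adjusted p = 7.19e-14). All WNK2 trans Ctr libraries held over 4 times the count of any WT Sor library, but WT Ctr, at 678 ± 105, lay with WT Sor, and WT Sor against WT Ctr gave a log2FC of 0.17 (adjusted p = 0.275). GUCY1A1, a subunit of the nitric oxide receptor guanylate cyclase, counted 73.0, 76.5, 69.0 and 64.3 in WT Sor and 465, 524, 392 and 375 in WNK2 trans Ctr (log2 fold change -2.63 ± 0.21, adjusted p = 1.59e-09), with WT Ctr between the groups at 159.6 ± 35.8. TXNIP, an inhibitor of thioredoxin and of glucose uptake, fell 2.85-fold (log2FC -1.51, adjusted p = 6.87e-09) and also fell against WT Ctr (log2FC -0.75, adjusted p = 0.000157).

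THBD, thrombomodulin, differed in sign with the isotonic group used, falling against WNK2 trans Ctr (log2FC -1.34, adjusted p = 9.11e-09) and rising against WT Ctr (log2FC 1.31, adjusted p = 1.75e-08). Its counts were 2064, 1901, 2415 and 2325 in WT Sor and 6360, 4569, 5394 and 5686 in WNK2 trans Ctr, with WT Ctr at 877 ± 43.0. The other largest falls among well expressed genes without overlap were in CDH23, PRR16, EFNA2, MEGF6, NFATC2 and PTGFR, with log2 fold changes from -1.46 to -1.30. Of these 6, CDH23 (log2FC -0.72, adjusted p = 0.00189) and NFATC2 (log2FC -0.61, adjusted p = 0.00078) also fell against WT Ctr.

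**Figure D2:**
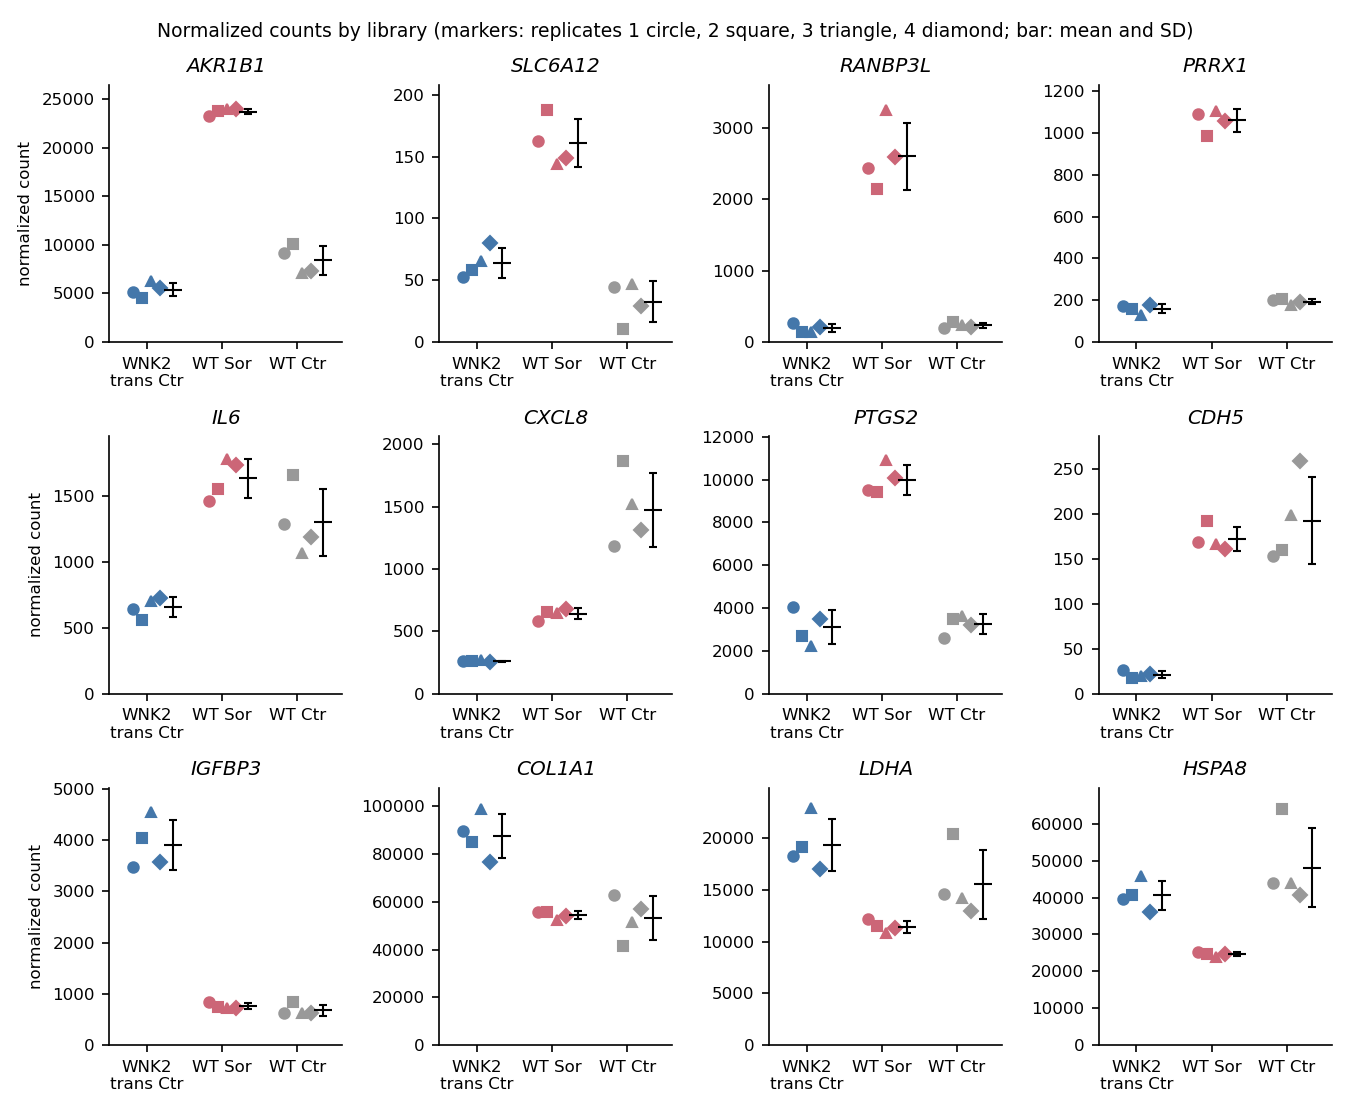
Normalized counts (vertical axes, from 0) of 12 genes in each library of WNK2 trans Ctr, WT Sor and WT Ctr, with the mean and SD of 4 libraries. AKR1B1, SLC6A12, RANBP3L, PRRX1 and PTGS2 are high in WT Sor alone, IL6, CDH5, IGFBP3 and COL1A1 lie apart in WNK2 trans Ctr, and CXCL8 is highest in WT Ctr.

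Genes of the tonicity response moved in both directions, 3 of 14 higher and 3 lower (median 0.227; 6 higher and 3 lower with the GC and length trend removed). AKR1B1 (chr7:134442350-134459284) counted 23260, 23730, 23910 and 23910 in WT Sor and 5182, 4572, 6250 and 5550 in WNK2 trans Ctr, a 4.40-fold rise (log2 fold change 2.14 ± 0.12, adjusted p = 1.35e-12). The WT Sor libraries lay close together and far above all WNK2 trans Ctr libraries. The gene rose against WT Ctr as well (log2FC 1.50, adjusted p = 8.44e-10) and with sorbitol in WNK2- cells (log2FC 2.17, adjusted p = 5.61e-13). SLC6A12, the betaine transporter, counted 162, 188, 144 and 149 in WT Sor and 52.2, 58.2, 65.2 and 80.4 in WNK2 trans Ctr (log2 fold change 1.33 ± 0.24, adjusted p = 0.000318), and SGK1, a kinase raised by cell shrinkage, rose 1.42-fold (log2FC 0.51, adjusted p = 4.62e-05).

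NFAT5 itself gave a log2FC of 0.25 (adjusted p = 0.596), with a single low library, WNK2 trans Ctr replicate 3 at 1437, against 3208 to 4179 in the other 7. ATP1B1, a subunit of the sodium pump, gave a log2FC of 0.21 (adjusted p = 0.0859) here and a log2FC of 1.21 (adjusted p = 1.18e-10) against WT Ctr. The 3 lower members were SLC6A6, the taurine transporter (log2FC -0.34, adjusted p = 0.0192), and the near-identical heat shock genes HSPA1A (log2FC -0.62, adjusted p = 0.0077) and HSPA1B (log2FC -0.59, adjusted p = 0.00292), whose reads the counting could split between them. SLC5A3, the myo-inositol transporter, was counted at 0 in all 8 libraries and could not be assessed. The call of SLC6A6 was lost when WT Sor replicate 3 or 4, or WNK2 trans Ctr replicate 1 or 4 was left out singly, with a log2FC of -0.29 to -0.31. In WT Sor against WT Ctr, which shares the WT Sor libraries and called 24.1% of all genes (11.4% higher and 12.7% lower), 6 members were higher and 3 lower (median 0.545).

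In the WNK pathway 3 of 15 genes were higher and none lower (median 0.169; 7 higher and 0 lower with the GC and length trend removed). WNK4 counted 788 ± 17.6 in WT Sor and 454 ± 70.5 in WNK2 trans Ctr (log2 fold change 0.80 ± 0.12, adjusted p = 4.81e-05), STK39 rose by 0.48 ± 0.10 on the log2 scale and SLC12A5, a potassium-chloride cotransporter, by 1.11 ± 0.19. WNK1 (log2FC 0.05, adjusted p = 0.849), OXSR1 (log2FC -0.02, adjusted p = 0.935) and SLC12A2 (log2FC 0.42, adjusted p = 0.0788) did not pass. Among 18 volume-regulated channels and osmosensors, KCNMA1, a large-conductance potassium channel, rose 2.41-fold (log2FC 1.27, adjusted p = 2.12e-07) and CLIC1 fell (log2FC -0.40, adjusted p = 0.0351). The share called in this list was 11.1%, below the 15.1% of all tested genes. TRPV4 (log2FC -0.37, adjusted p = 0.146), LRRC8A (log2FC -0.07, adjusted p = 0.586) and PIEZO1 (log2FC 0.07, adjusted p = 0.798) did not pass (median of the list -0.0664; 2 higher and 2 lower with the GC and length trend removed). The call of CLIC1 was lost when WT Sor replicate 2 or 3 or 4, or WNK2 trans Ctr replicate 3 was left out singly, with a log2FC of -0.23 to -0.41.

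Among inflammatory mediators more rose than fell, with 10 of 24 cytokines and chemokines higher in WT Sor and 2 lower (median 0.614; 8 higher and 2 lower without WNK2 trans Ctr replicate 3). IL6 counted 1464, 1557, 1786 and 1737 in WT Sor and 645, 561, 706 and 726 in WNK2 trans Ctr (log2 fold change 1.31 ± 0.13, adjusted p = 8.80e-08), and CXCL8, which attracts neutrophils, 581, 657, 644 and 680 in WT Sor and 257, 262, 265 and 256 in WNK2 trans Ctr (log2 fold change 1.30 ± 0.13, adjusted p = 1.10e-07). In both genes every WT Sor library lay above every WNK2 trans Ctr library. CSF3, the granulocyte growth factor, rose 7.44-fold from 42.8 ± 7 to 321 ± 22.6 (log2FC 2.90, adjusted p = 7.40e-09).

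IL1B (log2 fold change 1.44 ± 0.17, adjusted p = 1.62e-06), LIF (log2FC 1.04, adjusted p = 0.000129), CXCL1 (log2FC 1.57, adjusted p = 1.85e-08) and CXCL6 (log2FC 0.68, adjusted p = 0.000604) rose as well, and CXCL12 fell (log2FC -1.01, adjusted p = 0.000147). For 3 chemokines the direction turned with the isotonic group. Against WT Ctr, CXCL8 (log2FC -1.20, adjusted p = 2.60e-07), CXCL1 (log2FC -0.78, adjusted p = 0.000203) and CXCL6 (log2FC -0.97, adjusted p = 6.04e-06) were lower in WT Sor, while IL1B was higher (log2FC 0.76, adjusted p = 0.00161) and IL6 gave a log2FC of 0.33 (adjusted p = 0.0632). WT Ctr held 1472 ± 300 CXCL8 counts, and WT Ctr against WNK2 trans Ctr gave a log2FC of 2.50 (adjusted p = 2.16e-12). Over the list, 3 genes were higher and 5 lower in WT Sor against WT Ctr, at a median of 0.149.

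The sequences just upstream of 4 of these genes are shown, and all 4 are among those that held a match. Their counts rose against WNK2 trans Ctr, though not as a set against WT Ctr. Factors of the NF-kB family are known to act there. Each line gives the 250 bases before the RefSeq transcript start on the gene's own strand (GRCh38.p14), with matches to GGNNNTTCC or its reverse complement GGAANNNCC, a loose NF-kB-type pattern, in capitals.
CXCL8, chr4:73740319-73740568, plus strand: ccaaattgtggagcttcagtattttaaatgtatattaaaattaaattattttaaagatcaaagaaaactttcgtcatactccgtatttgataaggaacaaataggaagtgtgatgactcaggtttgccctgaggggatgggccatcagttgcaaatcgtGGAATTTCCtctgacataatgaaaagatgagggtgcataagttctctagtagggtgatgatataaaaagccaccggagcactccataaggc
CXCL1, chr4:73869143-73869392, plus strand: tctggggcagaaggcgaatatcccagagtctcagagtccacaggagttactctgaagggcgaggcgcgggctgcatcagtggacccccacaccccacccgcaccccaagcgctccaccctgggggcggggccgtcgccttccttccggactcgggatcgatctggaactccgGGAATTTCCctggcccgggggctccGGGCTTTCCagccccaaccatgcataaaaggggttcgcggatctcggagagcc
CXCL6, chr4:73836428-73836677, plus strand: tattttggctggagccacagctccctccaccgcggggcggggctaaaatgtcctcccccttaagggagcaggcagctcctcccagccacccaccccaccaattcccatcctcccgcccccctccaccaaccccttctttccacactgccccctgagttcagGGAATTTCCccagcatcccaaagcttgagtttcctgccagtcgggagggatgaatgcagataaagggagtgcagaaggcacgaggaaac
IL6, chr7:22726950-22727199, plus strand: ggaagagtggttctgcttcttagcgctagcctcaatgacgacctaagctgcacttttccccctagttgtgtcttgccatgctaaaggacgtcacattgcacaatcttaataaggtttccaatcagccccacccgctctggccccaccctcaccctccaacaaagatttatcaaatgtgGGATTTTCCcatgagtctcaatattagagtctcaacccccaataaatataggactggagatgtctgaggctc

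The nearest match began 91 bases before the start in CXCL8, 53 in CXCL1, 89 in CXCL6 and 72 in IL6. Windows were at hand for 6 of the 10 raised cytokine and chemokine genes, and 5 of the 6 held a match, beside 20.2% of 27305 genes with a window. CSF2, which also held a match, and the window without a match are not shown. GGAATTTCC fits both spellings and was counted once. TGGAAA or TTTCCA, the core of the NFAT5 site, whose letters can overlap the NF-kB-type pattern, was held by 4 of the 6 and by 21.5% of all genes. Of the 3 raised tonicity genes 2 had a window, and neither held the NFAT5 core. TGAGTCA or TGACTCA, the AP-1 site, was held by 1 of the 6, CXCL8, and by 5.19% of all genes. A match is a run of letters and not a measured site, and the windows reach no farther than 250 bases. Members of the list that were not raised were not set beside these, so the shares cannot be tied to the rise.

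Of the NF-kB subunits and feedback genes, 7 of 22 were higher and 1 lower (median 0.21; 5 higher and 1 lower without WNK2 trans Ctr replicate 3). PTGS2, the inducible cyclooxygenase of prostaglandin synthesis, counted 9498, 9407, 10920 and 10070 in WT Sor and 4044, 2682, 2238 and 3494 in WNK2 trans Ctr (log2 fold change 1.68 ± 0.15, adjusted p = 1.85e-08). It was nearly as far from WT Ctr (log2FC 1.62, adjusted p = 4.61e-08). IRAK2, a signalling partner of interleukin-1 receptors, rose 2.39-fold (log2FC 1.25, adjusted p = 1.96e-11), NFKBIZ 2.02-fold (log2FC 1.01, adjusted p = 4.96e-09) and TNFAIP3 1.23-fold (log2FC 0.29, adjusted p = 0.0379), while BCL3 fell (log2FC -0.80, adjusted p = 0.00958). NFKB1 (log2FC 0.10, adjusted p = 0.399), NFKBIA (log2FC 0.27, adjusted p = 0.174) and ICAM1 (log2FC 0.29, adjusted p = 0.207) did not pass. The call of TNFAIP3 was lost when WT Sor replicate 1 or 2 or 3 or 4, or WNK2 trans Ctr replicate 1 or 3 or 4 was left out singly, with a log2FC of 0.27 to 0.31.

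Of 31 interferon-response genes 10 were higher and 1 lower (median 0.139; 9 higher and 1 lower without WNK2 trans Ctr replicate 3, and 13 higher and 2 lower with the GC and length trend removed). MX1, an antiviral GTPase, counted 84.9 ± 18 and 40.9 ± 6.72 (log2 fold change 1.04 ± 0.18, adjusted p = 0.000158), MX2 gave a log2FC of 0.99 (adjusted p = 9.23e-06) and IFIH1, a sensor of double-stranded RNA, a log2FC of 0.86 (adjusted p = 0.000232). IFI16 was the lower member (log2FC -0.45, adjusted p = 0.00102). Against WT Ctr 4 members were higher and 4 lower, with MX1 at a log2FC of 0.42 (adjusted p = 0.077).

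Collagens and other matrix genes fell more often than they rose. Of 25 fibrous and basement membrane genes 8 were lower and 2 higher (median -0.112). COL1A1, the main chain of type I collagen, counted 55970, 55840, 52510 and 53920 in WT Sor and 89890, 85260, 98970 and 76870 in WNK2 trans Ctr (log2 fold change -0.69 ± 0.13, adjusted p = 0.000588), without overlap. COL4A1 of basement membranes fell 1.77-fold (log2FC -0.83, adjusted p = 1.90e-07), COL5A1 1.70-fold (log2FC -0.77, adjusted p = 7.20e-05), COL3A1 1.53-fold (log2FC -0.61, adjusted p = 1.09e-05) and the collagen-binding protein SPARC 1.56-fold (log2FC -0.64, adjusted p = 7.34e-06).

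Against WT Ctr none of the 25 genes was lower and 10 were higher (median 0.201). COL1A1 gave a log2FC of 0.04 (adjusted p = 0.87) and COL4A1 a log2FC of 0.00 (adjusted p = 0.998) there, while COL3A1 (log2FC 0.62, adjusted p = 8.78e-06) was higher. In the pair of isotonic groups 13 of these genes were lower in WT Ctr than in WNK2 trans Ctr and none higher, in a comparison that shares the WNK2 trans Ctr libraries and called 12.5% of all genes (6.97% higher and 5.57% lower). With sorbitol in WNK2- cells 16 fell and 1 rose (14.9% of all genes were called, 8.25% higher and 6.64% lower). FN1, fibronectin, gave a log2FC of 0.06 (adjusted p = 0.795) and LOX, which crosslinks collagen, a log2FC of 0.08 (adjusted p = 0.918).

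Of the 16 cartilage matrix genes tested 2 were higher and 3 lower (median -0.0437, which turned to 0.0171 without WNK2 trans Ctr replicate 3 and 0.0285 with the GC and length trend removed). COL2A1 counted 43.5, 69.3, 70.0 and 52.1 in WT Sor and 160.4, 184, 194 and 178 in WNK2 trans Ctr, a 3.05-fold fall (log2 fold change -1.61 ± 0.22, adjusted p = 9.38e-06), MATN2 fell 1.88-fold (log2FC -0.91, adjusted p = 4.95e-06) and HAPLN1, the link protein of aggrecan, rose 1.43-fold (log2FC 0.52, adjusted p = 0.00432). ACAN (log2FC -0.47, adjusted p = 0.342) and COMP (log2FC -0.78, adjusted p = 0.175) did not pass. Against WT Ctr, COL2A1 gave a log2FC of -0.49 (adjusted p = 0.116) and ACAN a log2FC of 0.90 (adjusted p = 0.0469).

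Matrix proteases and their inhibitors split, 6 of 22 higher and 4 lower (median -0.0917; 5 higher and 4 lower without WNK2 trans Ctr replicate 3). MMP3, stromelysin, counted 23.9, 17.9, 24.4 and 21.4 in WT Sor and 4.97, 3.28, 2.25 and 5.75 in WNK2 trans Ctr (log2 fold change 2.43 ± 0.38, adjusted p = 6.70e-05), and MMP9, a gelatinase, rose 3.09-fold (log2FC 1.63, adjusted p = 3.92e-06). ADAMTS5, an aggrecanase, rose 1.58-fold (log2FC 0.66, adjusted p = 0.0409), with WNK2 trans Ctr replicate 3 at 97.8 against 208 to 225 in the rest of its group. The call of ADAMTS5 was lost when WT Sor replicate 1 or 2 or 3 or 4, or WNK2 trans Ctr replicate 3 or 4 was left out singly, with a log2FC of 0.46 to 0.72. ADAMTS2, which trims procollagen, fell (log2FC -1.79, adjusted p = 9.61e-06), as did HTRA1, a secreted serine protease (log2FC -0.62, adjusted p = 3.34e-05). MMP13, the main collagenase of cartilage, gave a log2FC of -0.07 (adjusted p = 0.839) here and a log2FC of -1.01 (adjusted p = 7.08e-05) against WT Ctr.

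**Figure D3:**
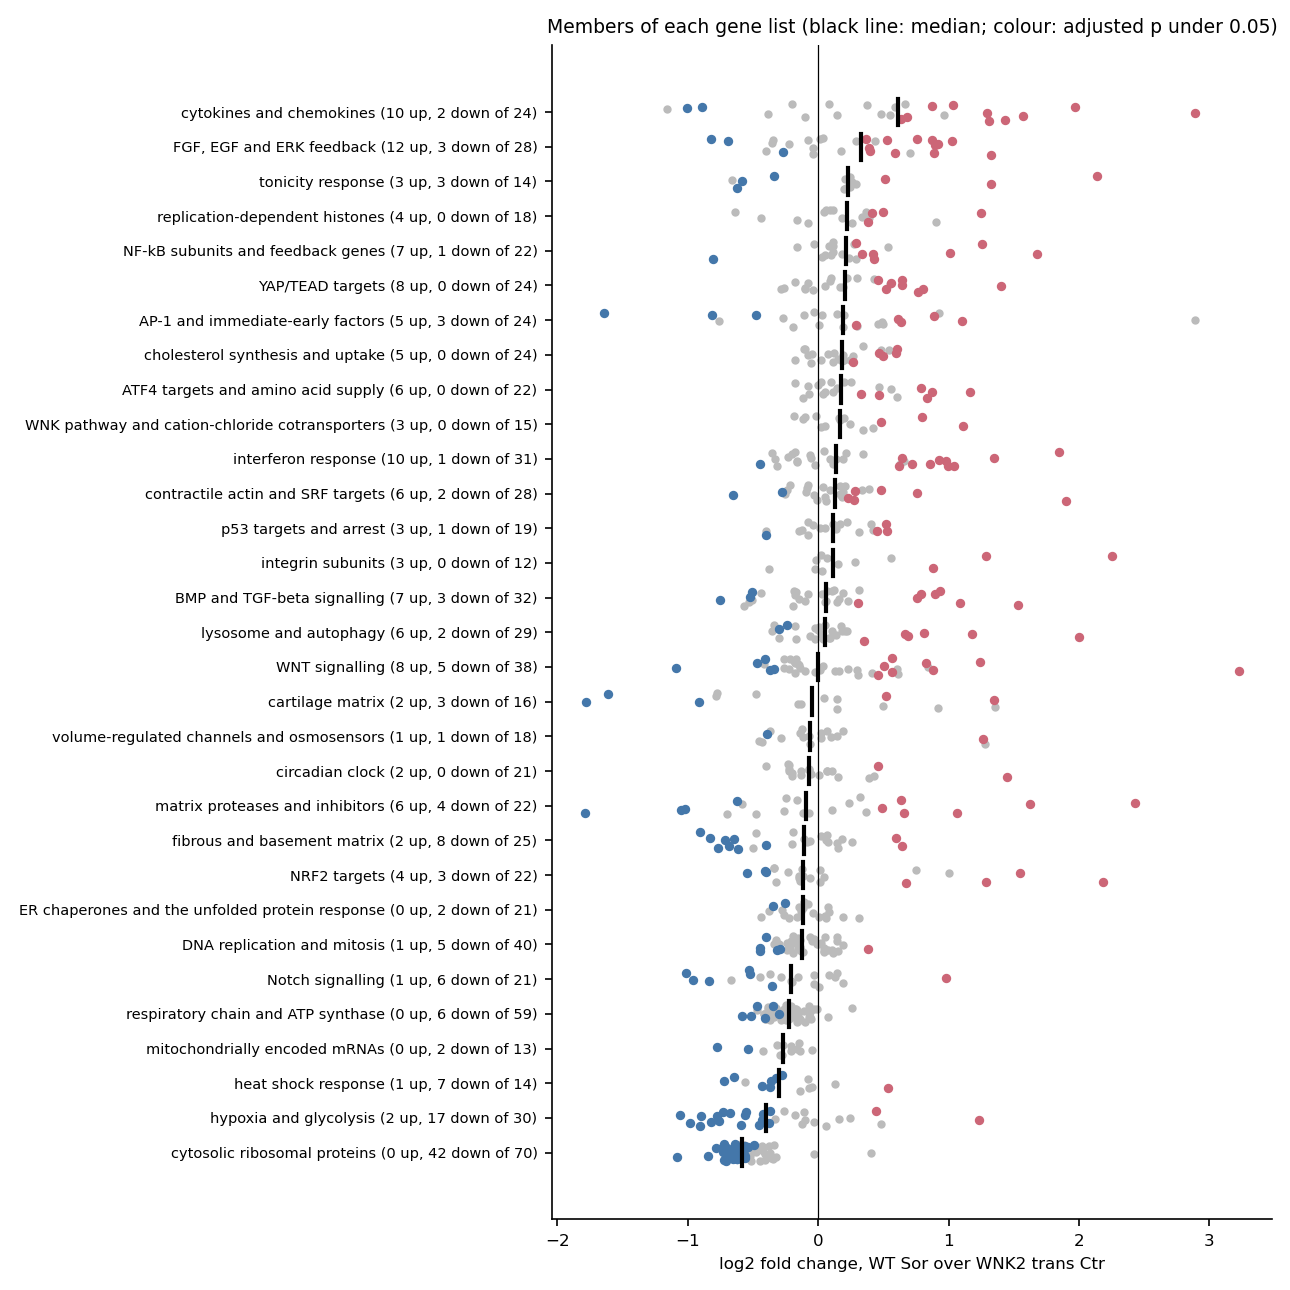
Log2 fold change between WT Sor and WNK2 trans Ctr (horizontal axis) for the tested members of 31 gene lists (rows), coloured where the adjusted p was under 0.05, with the median as a black line. Cytokines and chemokines lie highest at a median of 0.614 and cytosolic ribosomal proteins lowest at -0.586.

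Of 70 cytosolic ribosomal protein genes 42 fell and none rose (median -0.586), and 22 fell when WNK2 trans Ctr replicate 3 was left out (median -0.39). Their summed level was 36500, 35800, 33300 and 38000 CPM in WT Sor and 39700, 45100, 64700 and 49000 CPM in WNK2 trans Ctr, where replicate 3 was the highest. RPS3A counted 4250, 4223, 3969 and 4754 in WT Sor and 7732, 9048, 11370 and 8283 in WNK2 trans Ctr (log2 fold change -1.08 ± 0.17, adjusted p = 6.11e-05), and RPL3 (log2FC -0.49, adjusted p = 0.00837) and RPS6 (log2FC -0.58, adjusted p = 0.0105) fell less. The call of RPL3 was lost when WNK2 trans Ctr replicate 3 was left out singly, with a log2FC of -0.32. The call of RPS6 was lost when WNK2 trans Ctr replicate 3 was left out singly, with a log2FC of -0.40. Many of these genes have processed pseudogenes that can share their reads. Against WT Ctr 55 members fell (median -0.641), and with sorbitol in WNK2- cells 11 (median -0.386).

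Nuclear genes of the respiratory chain and ATP synthase gave a median of -0.222, with 6 of 59 lower and none higher, among them ATP5F1B (log2FC -0.30, adjusted p = 0.0272) and NDUFS5 (log2FC -0.59, adjusted p = 0.0239). These 6 are 10.2% of the list, beside 15.1% of all tested genes called (6.31% lower). The call of ATP5F1B was lost when WT Sor replicate 2 or 3 or 4, or WNK2 trans Ctr replicate 3 was left out singly, with a log2FC of -0.19 to -0.30. The call of NDUFS5 was lost when WT Sor replicate 3, or WNK2 trans Ctr replicate 3 was left out singly, with a log2FC of -0.38 to -0.52. Of the list 1 was lower without WNK2 trans Ctr replicate 3, and 19 were lower with the GC and length trend removed. COX7C (log2FC -0.21, adjusted p = 0.476) and NDUFA4 (log2FC -0.41, adjusted p = 0.0846) did not pass. Of the 13 mitochondrially encoded mRNAs, MT-ND5 and MT-ND6 were lower (15.4% of the list called, beside 15.1% of all tested genes; median of the list -0.267), and these lie on opposite strands beside each other. MT-ND6 gave a log2FC of -0.78 (adjusted p = 0.00454), and MT-CO1 a log2FC of -0.15 (adjusted p = 0.291).

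Among chaperones of the heat shock response 7 of 14 fell and 1 rose (median -0.303; 1 higher and 5 lower without WNK2 trans Ctr replicate 3). HSPA8, the constitutive cytosolic HSP70, counted 25150, 24590, 23920 and 24750 in WT Sor and 39700, 40650, 45920 and 36170 in WNK2 trans Ctr (log2 fold change -0.72 ± 0.11, adjusted p = 3.19e-05), and HSP90AA1, an HSP90, fell 1.57-fold (log2FC -0.65, adjusted p = 2.50e-06). Every WT Sor library lay below every WNK2 trans Ctr library in both genes. HSPB8, a small heat shock protein, was the member that rose (log2FC 0.54, adjusted p = 0.00469). Against WT Ctr 9 fell and 1 rose (median -0.425), with HSPA8 at a log2FC of -0.97 (adjusted p = 5.49e-07). Of 21 ER chaperone and unfolded protein genes 2 were lower and none higher (median -0.12; 0 higher and 1 lower without WNK2 trans Ctr replicate 3, and 1 higher and 5 lower with the GC and length trend removed), and HSPA5, the chief ER chaperone, gave a log2FC of -0.16 (adjusted p = 0.142). The share of ER genes called was 9.52%, beside 15.1% of all tested genes (6.31% lower).

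**Figure D4:**
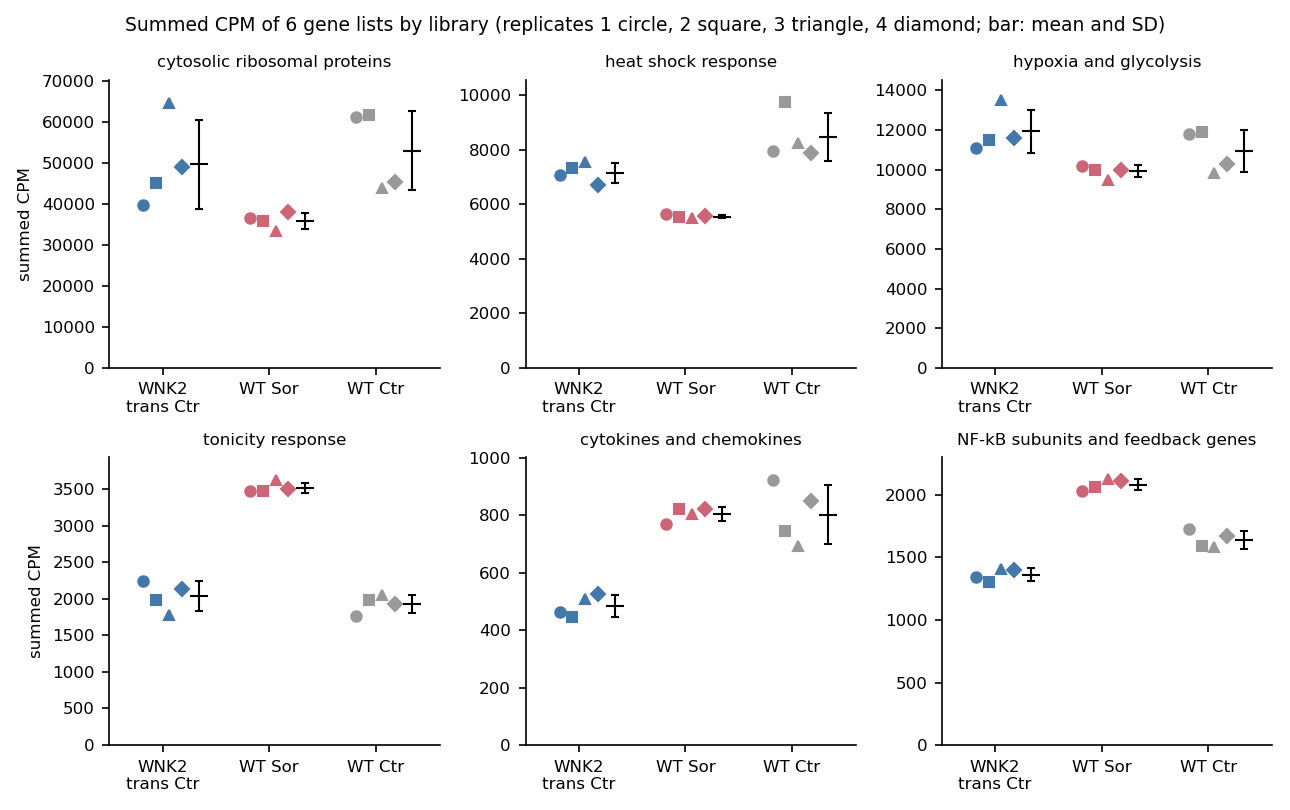
Summed CPM of 6 gene lists (vertical axes, from 0) in each library of WNK2 trans Ctr, WT Sor and WT Ctr, with the mean and SD of 4 libraries. The heat shock sums of WT Sor lie below all libraries of both isotonic groups and the tonicity sums above them, while the highest ribosomal sum is that of WNK2 trans Ctr replicate 3.

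Genes of glycolysis and the hypoxia response were lower in 17 of 30 cases and higher in 2 (median -0.403; 2 higher and 13 lower without WNK2 trans Ctr replicate 3). LDHA, lactate dehydrogenase, counted 12200, 11470, 10790 and 11270 in WT Sor and 18280, 19100, 22880 and 17050 in WNK2 trans Ctr (log2 fold change -0.76 ± 0.11, adjusted p = 2.66e-05). PDK1, which holds pyruvate back from the mitochondria, fell 2.09-fold (log2FC -1.06, adjusted p = 2.56e-06), PGK1 1.66-fold (log2FC -0.73, adjusted p = 1.05e-05), the glucose transporter SLC2A3 1.71-fold (log2FC -0.78, adjusted p = 1.92e-06), the collagen prolyl hydroxylase P4HA1 1.86-fold (log2FC -0.90, adjusted p = 6.05e-07) and BNIP3, a mitophagy receptor, 1.87-fold (log2FC -0.91, adjusted p = 1.27e-08).

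A pair of hypoxia targets went the other way, VEGFA (log2FC 0.44, adjusted p = 0.00268) and ADM, adrenomedullin, which counted 1227 ± 90.9 against 522 ± 80.3 (log2FC 1.23, adjusted p = 9.01e-08). HIF1A gave a log2FC of 0.48 (adjusted p = 0.262). In WT Sor against WT Ctr 10 members were lower and 7 higher (median -0.0307), with LDHA at a log2FC of -0.44 (adjusted p = 0.00481), PDK1 at a log2FC of -0.33 (adjusted p = 0.071) and HK2, hexokinase, at a log2FC of 0.26 (adjusted p = 0.0531) beside a log2FC of -0.56 (adjusted p = 0.000134) here. The isotonic groups themselves differed in this list, 13 genes lower in WT Ctr than in WNK2 trans Ctr and 1 higher.

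Of 28 growth factors and receptors of the EGF and FGF families and feedback genes of ERK signalling, 12 were higher and 3 lower (median 0.327; 8 higher and 2 lower without WNK2 trans Ctr replicate 3, and 13 higher and 5 lower with the GC and length trend removed). HBEGF counted 331 ± 21.1 and 197 ± 19.9 (log2 fold change 0.76 ± 0.10, adjusted p = 6.67e-06), AREG rose 2.51-fold (log2FC 1.33, adjusted p = 0.00164), NRG1 1.89-fold (log2FC 0.92, adjusted p = 2.81e-05) and FGF2 1.85-fold (log2FC 0.89, adjusted p = 0.00602). The phosphatase DUSP6, made in response to ERK, rose 1.50-fold (log2FC 0.59, adjusted p = 0.000103) and cyclin D1 (CCND1) 1.83-fold (log2FC 0.87, adjusted p = 1.69e-05). FGFR3 fell (log2FC -0.82, adjusted p = 0.00353) and SPRY4 did not pass (log2FC -0.04, adjusted p = 0.791). In WT Sor against WT Ctr 12 of these genes were higher and none lower (median 0.31).

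Targets of YAP and TEAD were higher in 8 of 24 cases and lower in none (median 0.205; 9 higher and 1 lower with the GC and length trend removed). ANKRD1 counted 419, 431, 527 and 473 in WT Sor and 179, 188, 166 and 167 in WNK2 trans Ctr (log2 fold change 1.40 ± 0.15, adjusted p = 1.68e-07), and CCN1, a matricellular protein, 8944, 9261, 9121 and 9980 in WT Sor and 4634, 4828, 6436 and 6038 in WNK2 trans Ctr (log2 fold change 0.77 ± 0.12, adjusted p = 4.64e-05). Neither gene overlapped between the groups, but 13 of the 24 list members showed no overlap, more than the 8 called. Among AP-1 and immediate-early factors 5 of 24 were higher and 3 lower (median 0.194; 10 higher and 4 lower with the GC and length trend removed). FOS rose (log2FC 1.10, adjusted p = 0.000892), with WNK2 trans Ctr replicate 3 at 1211 against 598 to 661 in the other libraries of its group. JUN rose as well (log2FC 0.63, adjusted p = 0.0159), MAF fell (log2FC -1.65, adjusted p = 1.12e-05), and FOSL1 (log2FC 0.50, adjusted p = 0.104) and MYC (log2FC 0.30, adjusted p = 0.24) did not pass. The call of JUN was lost when WNK2 trans Ctr replicate 1 or 2 was left out singly, with a log2FC of 0.56 to 0.60. Contractile and SRF-dependent genes were higher in 6 of 28 cases and lower in 2 (median 0.127; 3 higher and 2 lower without WNK2 trans Ctr replicate 3, and 10 higher and 4 lower with the GC and length trend removed), with CALD1, caldesmon, at a log2FC of 1.90 (adjusted p = 0.000102) and TAGLN2 at a log2FC of -0.65 (adjusted p = 0.00199).

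Of 32 genes of BMP and TGF-beta signalling 7 were higher and 3 lower (median 0.0563; 7 higher and 5 lower with the GC and length trend removed). BMP2 counted 253, 258, 220.2 and 236 in WT Sor and 118, 129.5, 94.5 and 110.3 in WNK2 trans Ctr (log2 fold change 1.09 ± 0.16, adjusted p = 3.09e-05) and BMP4 rose 1.86-fold (log2FC 0.90, adjusted p = 3.30e-06). INHBA, the activin A subunit (log2FC 0.79, adjusted p = 6.83e-07), and the BMP antagonists GREM1 (log2FC 0.94, adjusted p = 2.56e-06) and NOG (log2FC 1.53, adjusted p = 0.0157) rose too, and TGFBI, an adhesion protein raised by TGF-beta, fell (log2FC -0.75, adjusted p = 6.27e-08). The call of NOG was lost when WNK2 trans Ctr replicate 2 was left out singly, with a log2FC of 1.29. GREM1 (log2FC -0.53, adjusted p = 0.00157) and INHBA (log2FC -0.51, adjusted p = 0.000201) were lower in WT Sor than in WT Ctr, whereas BMP2 was higher (log2FC 1.74, adjusted p = 7.79e-08).

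Among 38 WNT genes 8 were higher and 5 lower (median -0.00415, or 0.00651 with the GC and length trend removed; 8 higher and 4 lower without WNK2 trans Ctr replicate 3). The secreted WNT antagonists DKK1 (log2FC 0.46, adjusted p = 0.00257), SFRP1 (log2FC 0.57, adjusted p = 1.91e-06) and FRZB (log2FC 0.83, adjusted p = 1.93e-07) were all higher, as they were against WT Ctr (log2FC 0.41, 0.67 and 0.62), and the transcription factor LEF1 was lower (log2FC -1.09, adjusted p = 0.0384). WNT5A (log2FC 0.23, adjusted p = 0.111) and AXIN2, a WNT target (log2FC -0.14, adjusted p = 0.788), did not pass. The call of LEF1 was lost when WT Sor replicate 1 or 2 or 3, or WNK2 trans Ctr replicate 1 or 2 or 4 was left out singly, with a log2FC of -0.87 to -1.16.

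Of 21 Notch genes 6 were lower and 1 higher (median -0.208). The receptor NOTCH3 counted 4569, 4594, 4506 and 4309 in WT Sor and 9764, 9166, 8237 and 9166 in WNK2 trans Ctr (log2 fold change -1.01 ± 0.20, adjusted p = 0.000717), the ligand JAG1 fell 1.44-fold (log2FC -0.53, adjusted p = 1.76e-05), and the targets HEY1 (log2FC -0.84, adjusted p = 0.000756) and NRARP (log2FC -0.96, adjusted p = 7.33e-05) fell. For NOTCH3 and JAG1 no library overlapped. Against WT Ctr both were higher instead, NOTCH3 at a log2FC of 0.90 (adjusted p = 0.00177) and JAG1 at a log2FC of 0.44 (adjusted p = 0.000136). Of 12 integrin subunits 3 rose and none fell (median 0.11; 3 higher and 1 lower without WNK2 trans Ctr replicate 3, and 5 higher and 1 lower with the GC and length trend removed), namely the collagen-binding subunits ITGA10 (log2 fold change 2.25 ± 0.22, adjusted p = 7.92e-08), ITGA1 (log2FC 1.29, adjusted p = 2.44e-05) and ITGA2 (log2FC 0.88, adjusted p = 0.000957), all of which also rose against WT Ctr (log2FC 1.51, 1.26 and 1.43). ITGB1, their common partner, gave a log2FC of -0.02 (adjusted p = 0.947). The share of integrin subunits called was 25%, beside 15.1% of all tested genes.

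Targets of ATF4, the factor of the amino acid response, were higher in 6 of 22 cases and lower in none (median 0.173), led by CHAC1, which breaks down glutathione (log2FC 1.17, adjusted p = 0.00297), TRIB3 (log2FC 0.87, adjusted p = 1.42e-06), GDF15 (log2FC 0.83, adjusted p = 0.00392) and STC2 (log2FC 0.79, adjusted p = 1.47e-05), and ATF3 did not pass (log2FC 0.03, adjusted p = 0.886). Cholesterol synthesis genes were higher in 5 of 24 cases and lower in none (median 0.186; 4 higher and 0 lower without WNK2 trans Ctr replicate 3, and 10 higher and 0 lower with the GC and length trend removed), DHCR7 among them (log2FC 0.61, adjusted p = 0.00353). The share called was 20.8%, beside 15.1% of all tested genes. Against WT Ctr the direction turned, with 1 higher and 5 lower (median -0.149). In the isotonic pair 13 were higher in WT Ctr than in WNK2 trans Ctr and 0 lower. With sorbitol in WNK2- cells 0 were higher and 4 lower. NRF2 targets split, 4 of 22 higher and 3 lower (median -0.12; 4 higher and 1 lower without WNK2 trans Ctr replicate 3, and 4 higher and 7 lower with the GC and length trend removed), with ME1, malic enzyme (log2FC 1.28, adjusted p = 9.11e-09), and AKR1C1, whose reads resemble those of its AKR1C relatives (log2FC 2.19, adjusted p = 3.95e-06), higher and NQO1 (log2FC -0.41, adjusted p = 0.0131) and TKT (log2FC -0.55, adjusted p = 0.000213) lower. The call of NQO1 was lost when WT Sor replicate 2, or WNK2 trans Ctr replicate 3 was left out singly, with a log2FC of -0.29 to -0.35.

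Of 40 genes of DNA replication and mitosis 1 was higher and 5 were lower (median -0.123; 2 higher and 5 lower without WNK2 trans Ctr replicate 3, and 4 higher and 12 lower with the GC and length trend removed), beside 0 and 32 in WT Sor against WT Ctr (median -0.521). The share called between WT Sor and WNK2 trans Ctr was 15%, as among all tested genes (15.1%). The replication genes MCM6 (log2FC -0.45, adjusted p = 0.00692) and PCNA (log2FC -0.44, adjusted p = 0.0122) fell, FOXM1 rose (log2FC 0.38, adjusted p = 0.0105), and MKI67 (log2FC 0.05, adjusted p = 0.867) and CCNB1 (log2FC -0.12, adjusted p = 0.548) did not pass, with CCNB1 at a log2FC of -0.90 (adjusted p = 3.43e-06) against WT Ctr. The isotonic groups differed in 26 of these genes, all higher in WT Ctr. The call of PCNA was lost when WNK2 trans Ctr replicate 3 was left out singly, with a log2FC of -0.32.

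Of 19 p53 targets 3 were higher and 1 lower (median 0.111; 2 higher and 1 lower without WNK2 trans Ctr replicate 3, and 6 higher and 1 lower with the GC and length trend removed), GADD45A among the former (log2FC 0.52, adjusted p = 0.022), and CDKN1A gave a log2FC of 0.41 (adjusted p = 0.0941). In the circadian clock NPAS2 (log2 fold change 1.45 ± 0.12, adjusted p = 2.06e-09) and BMAL1 (log2FC 0.46, adjusted p = 0.00489) rose among 21 genes and none fell (median -0.0677). The clock share, 9.52%, lay near the 8.74% of all tested genes that were higher. The call of GADD45A was lost when WT Sor replicate 4, or WNK2 trans Ctr replicate 1 or 2 was left out singly, with a log2FC of 0.41 to 0.46. Lysosomal and autophagy genes were higher in 6 of 29 cases and lower in 2 (median 0.0544; 8 higher and 0 lower without WNK2 trans Ctr replicate 3), GPNMB (log2FC 2.00, adjusted p = 7.89e-07), CTSS (log2FC 1.18, adjusted p = 1.17e-06) and NPC1 (log2FC 0.67, adjusted p = 0.000301) among the higher. Of 18 replication-dependent histone genes seen in these poly(A) libraries 4 were higher and none lower (median 0.222; 3 higher and 0 lower without WNK2 trans Ctr replicate 3).

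Genes best known from blood vessel endothelium also differed. Of 8 endothelial markers 7 were tested and 3 were higher (median 0.705), and the summed level of the 8 was 68.6 to 77.7 CPM in WT Sor and 28.2 to 43.5 CPM in WNK2 trans Ctr. CDH5, the cadherin of endothelial junctions, counted 169, 192, 166 and 161 in WT Sor and 26.1, 17.2, 19.1 and 21.8 in WNK2 trans Ctr (log2 fold change 3.04 ± 0.18, adjusted p = 9.10e-12), with WT Ctr at 193 ± 48.5 beside WT Sor. The receptor TIE1 (log2 fold change 3.03 ± 0.26, adjusted p = 9.11e-09) and PECAM1 (log2FC 0.75, adjusted p = 0.000641) rose. KDR, VWF and TEK had at most 4, 16 and 17 counts in any of the 8 libraries, and VWF (log2FC 0.70, adjusted p = 0.238), ERG (log2FC -0.01, adjusted p = 0.988) and CLDN5 (log2FC -0.39, adjusted p = 0.674) did not pass. ESM1 (log2FC 3.12, adjusted p = 9.60e-09) and MYCT1 (log2FC 2.53, adjusted p = 3.08e-06), which endothelial cells also make, rose. Both lie outside the marker list and were chosen after their values were seen. THBD, likewise best known from endothelium and outside the list, fell, as given above. The part of other cells in these values was not tested.

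For other cell types, CD3E, CD68, ADIPOQ, FABP4, CIDEC and KRT14 were counted at 0 in all 8 libraries, and PTPRC, the common leukocyte antigen, at no more than 3 counts. Of the 3 leukocyte markers tested CD14 was lower (log2FC -0.72, adjusted p = 0.00411), and no epithelial (5 tested) or adipocyte marker (2 tested) passed. Summed leukocyte markers were at 10.4 to 15.6 CPM in WT Sor and 13.6 to 21.2 in WNK2 trans Ctr, epithelial markers at 835 to 897 and 659 to 954, and adipocyte markers at 95.5 to 101 and 89.6 to 110. In such bulk samples fewer cells of a type and less RNA per cell cannot be told apart.

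**Figure D5:**
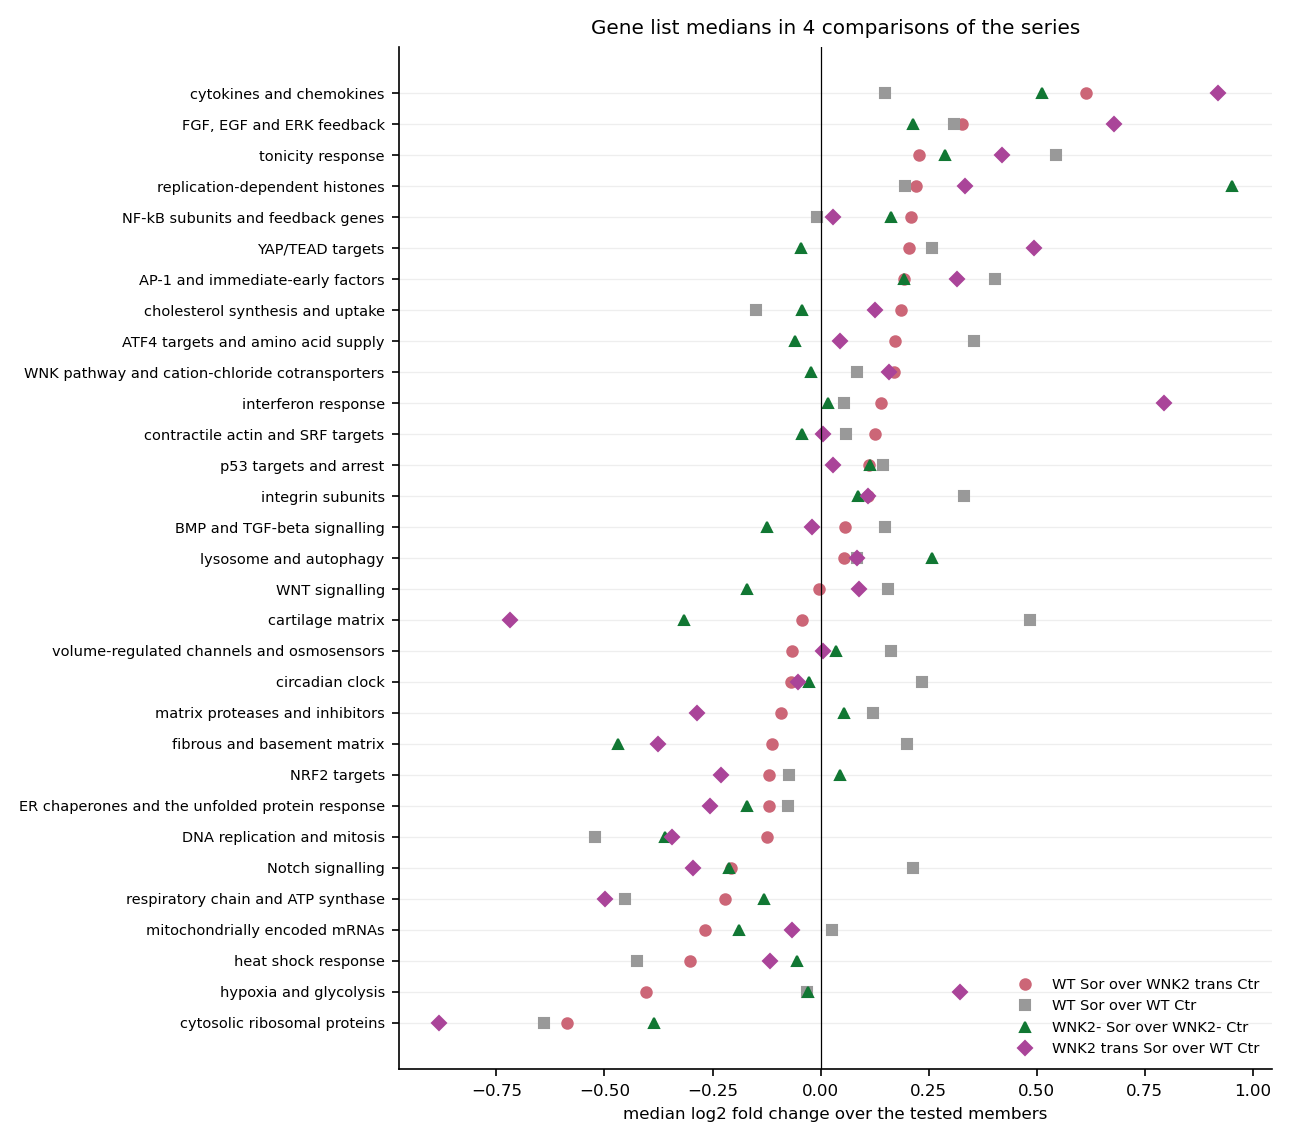
Median log2 fold change of 31 gene lists (rows) in 4 comparisons of the series, WT Sor over WNK2 trans Ctr (circles), WT Sor over WT Ctr (squares), WNK2- Sor over WNK2- Ctr (triangles) and WNK2 trans Sor over WT Ctr (diamonds). Ribosomal proteins lie lowest in 3 of the 4 and below all lists but fibrous matrix in WNK2- cells, whereas hypoxia and glycolysis lies at -0.403, -0.0307, -0.0289 and 0.322.

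Sorbitol in WNK2- cells, a comparison without any of these 8 libraries, called 2473 genes (14.9%). Of the 2499 genes called between WT Sor and WNK2 trans Ctr, 997 were called there in the same direction, 39.9% of the first list and 40.3% of the second, and 58 were called in the opposite direction. AKR1B1 (2.14 and 2.17), PRRX1 (2.73 and 2.78) and NPAS2 (1.45 and 1.49) had these log2FC in the 2 comparisons, and the difference between them was -0.03 ± 0.16, adjusted p = 0.969 for AKR1B1 and -0.05 ± 0.16, adjusted p = 0.942 for PRRX1. The test of the difference itself called 562 genes (3.39%), 381 (2.3%) with the larger value between WT Sor and WNK2 trans Ctr and 181 (1.09%) with the smaller. The count was 1307 in a fit of the 4 groups alone.

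The 5 smallest p of that test belonged to ZNF114, IGFBP3, ABCG1, DNER and CDH5. ZNF114, a zinc finger gene, counted 639 ± 73.7 in WNK2- Sor and 45.6 ± 3.96 in WNK2- Ctr (log2FC 3.81, adjusted p = 1.20e-13), and gave a log2FC of -0.33 (adjusted p = 0.244) between WT Sor and WNK2 trans Ctr (difference -4.14 ± 0.26, adjusted p = 1.23e-10). ABCG1 did not pass in WNK2- cells (log2FC 0.11, adjusted p = 0.558; difference 2.21 ± 0.15, adjusted p = 2.99e-10), nor did CDH5 (log2FC -0.27, adjusted p = 0.222; difference 3.31 ± 0.23, adjusted p = 6.53e-10). IGFBP3 gave a log2FC of 0.14 (adjusted p = 0.479) there (difference -2.50 ± 0.16, adjusted p = 1.23e-10). COL2A1 (-2.55 ± 0.40, adjusted p = 0.000242), HK2 (-0.84 ± 0.13, adjusted p = 0.000231) and TNFAIP3 (-1.01 ± 0.14, adjusted p = 3.94e-05) were among the genes with a lower value in WT Sor against WNK2 trans Ctr, and LIF (1.44 ± 0.24, adjusted p = 0.000566) and PTGS2 (1.20 ± 0.21, adjusted p = 0.00119) among those with a higher one.

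WNK2 trans Sor against WT Ctr, which also shares no library with these groups and joins the 2 wild-type groups with many WNK2 reads, called 6509 genes (39.2%), 19.8% higher and 19.5% lower. Of the 2499 genes, 1875 were called there in the same direction, 75% of the first list and 28.8% of the second, and 50 in the opposite one. MMP3 had a log2FC of 6.43 ± 0.28 there beside 2.43 ± 0.38 here (difference -4.00 ± 0.64, adjusted p = 0.000308), and IL1B 3.09 ± 0.17 beside 1.44 ± 0.17 (difference -1.65 ± 0.24, adjusted p = 9.13e-05). For AKR1B1 the values were 1.67 ± 0.11 and 2.14 ± 0.12 (difference 0.47 ± 0.16, adjusted p = 0.0807).

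The difference between these 2 comparisons was called in 906 genes (5.46%), 401 (2.42%) with the larger value between WT Sor and WNK2 trans Ctr and 505 (3.04%) with the smaller. The count was 1768 without WNK2 trans Sor replicate 1, 602 without its replicate 4, and 401 in a fit of the 4 groups alone. RGS4, BNIP3, WFDC3 and HK2 were among the genes with the smallest p. RGS4, a brake on G protein signalling, rose by 2.22 on the log2 scale in WNK2 trans Sor against WT Ctr and by 0.53 in WT Sor against WNK2 trans Ctr (difference -1.69 ± 0.12, adjusted p = 4.60e-09), in the same order WFDC3 rose by 4.58 and 1.34. BNIP3 rose by 0.53 and fell by 0.91 on the log2 scale, and HK2 likewise rose by 1.17 and fell by 0.56 (difference -1.73 ± 0.13, adjusted p = 1.32e-08). Hypoxia and glycolysis genes were 16 higher and 2 lower of 30 in WNK2 trans Sor against WT Ctr, beside 2 and 17 here.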

How the data were processed

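RNA was measured by poly(A) RNA-seq in 24 libraries of T/C-28a2 cells, 4 per group, and the groups come from the labels. The authors deposited raw counts of reads per Ensembl gene, 1 file per library. The submitters' processing notes name HISAT2 2.2.1, HTSeq 2.0.2, DESeq2 1.38.3 and GRCh38. The study's methods name other versions of HTSeq and DESeq2. The strand setting is not given in the sources used here, so a gene and its antisense or overlapping partner may share or lose reads.

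From these counts, genes with at least 10 reads in enough libraries were kept (filterByExpr), scaled by TMM and tested with edgeR 4.0.16 (R 4.3.3) by its quasi-likelihood F test with 6 group means over all 24 libraries. P-values were adjusted by Benjamini-Hochberg over the 16599 genes and WNK2 together, at a threshold of 0.05. WNK2 was then left out of all counts of genes. Replicates carry a number in the labels and are called biological in the study's methods, with no culture named, so p-values measure the spread between these libraries. Gene positions are from GENCODE 29 and upstream sequences from RefSeq.

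The groups, gene lists and members were chosen with earlier results of these data known. Named genes were key list members, the 10 largest rises and falls among well expressed called genes without overlap, the strongest called members of each list, and the 5 smallest p of each difference test. Others, such as PRSS35, MYH15, TENM4, ESM1 and MYCT1, were chosen after their values were seen, and some named genes are not reported here. Alternatives were other scaling and filters, thinning, DESeq2 1.42.0, a replicate block, a GC and length correction (5 spline degrees of freedom) and leaving out each library.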

Additional observations from a re-analysis of the deposited data

Results flagged for a closer look

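In 14 of 352 sets of 4 library values looked at, a single library lay far from the other 3 of its group, its gap to the nearest exceeding Dixon's critical share of the group's range. Chance alone flags about 1 in 20 such groups, and the values below are normalized counts. In WNK2 trans Ctr replicate 1 this held for ACAN (223, highest) and FGFR3 (1135, lowest). In WNK2 trans Ctr replicate 3 this held for COMP (66.3, highest), ADAMTS5 (97.8, lowest), FOS (1211, highest), BCL3 (2663, highest), PGK1 (13530, highest) and NRG1 (155, lowest). In WNK2 trans Ctr replicate 4 this held for MT-CO1 (108100, lowest). In WT Sor replicate 1 this held for IGFBP3 (842, highest). In WT Sor replicate 3 this held for BMAL1 (382, highest), IFI16 (1357, highest) and ITGA2 (5136, highest). In WT Sor replicate 4 this held for HSPA5 (15980, lowest).

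For 54 of the 174 genes named, the log2 fold change in WT Sor against WNK2 trans Ctr differed from that of sorbitol in WNK2- cells (edgeR's quasi-likelihood test of the difference, adjusted p under 0.05), 8 libraries against 8. Each value below is the first log2 fold change minus the second. Among inflammatory and interferon genes these were IL6 (0.69), LIF (1.44), CXCL8 (0.70), CXCL1 (1.22), CXCL6 (1.36), PTGS2 (1.20), TNFAIP3 (-1.01), MX1 (0.99), MX2 (1.45) and IFI16 (-0.99). Growth factor and transcription factor genes were HBEGF (0.59), FOS (1.42), CCN1 (0.60), BMP4 (1.87), INHBA (0.90), DKK1 (0.62), FRZB (0.95), WNT5A (0.99) and MAF (-2.35), and matrix, integrin and contractile genes COL1A1 (0.75), COL2A1 (-2.55), ITGA2 (-0.96) and CALD1 (1.80). Genes of glucose, sterol and amino acid metabolism and of the hypoxia response were HK2 (-0.84), PDK1 (-0.65), PGK1 (-0.58), SLC2A3 (-0.75), BNIP3 (-0.91), ADM (1.14), TXNIP (-1.31), DHCR7 (0.69), TRIB3 (0.64) and STC2 (0.67). Genes best known from endothelium were CDH5 (3.31), TIE1 (1.53) and THBD (-1.55), and chaperone and mitochondrial genes HSPA8 (-0.62), HSP90AA1 (-0.53) and MT-ND6 (-0.92). The remaining genes were RANBP3L (1.65), ABTB3 (2.18), MCHR2-AS1 (1.39), ABCG1 (2.21), DNER (1.60), LAMP3 (0.86), GUCY1A1 (-2.11), IGFBP3 (-2.50), PRR16 (-1.14), PTGFR (-1.54), SLC12A5 (0.96), KCNMA1 (1.02), FOXM1 (0.54), ZNF114 (-4.14) and TENM4 (2.79).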

How the results depend on the processing

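The number of genes called between WT Sor and WNK2 trans Ctr, 2499, was 2034 to 3075 under other scaling, filters, thinning to the smallest library total, the replicate block (2387), DESeq2 (2899) and a fit of the 8 libraries alone, and 1741 to 2514 when each library was left out in turn. It was 4161 with the GC and length trend removed (2129 higher and 2032 lower). The 562 genes that differed from sorbitol in WNK2- cells became 1307 in a fit of the compared groups alone, 1321 with that trend removed, 508 with the replicate block and 416 to 536 without each library. The 906 that differed from WNK2 trans Sor against WT Ctr became 401, 2103, 796 and 602 to 1768 in the same order, and the cause of these changes was not tested. The replicate numbers were not used as pairs in the main fit. Deviations of same-numbered libraries correlated at -0.027, 0.0088, -0.126 and 0.0067, and those of other-numbered libraries at up to 0.129. No pairing was seen, but so few values cannot exclude one. Of 2935 pairs of a named gene and an alternative, 2831 kept direction and side of the threshold, 55 lost the call, 19 gained one and 30 changed sign, and 124 of the 138 called genes kept their call under every alternative run. No named gene that was called changed sign under these alternatives. The named genes that did were uncalled, under the GC and length trend removed WNK1 (-0.000781), MKI67 (-0.0174) and ITGB1 (0.0107), and under upper-quartile factors OXSR1 (0.0193), ITGB1 (0.021) and ERG (0.0247), and under a minimum of 10 counts in every library OXSR1 (0.0121) and ITGB1 (0.0136), and under a fit of the compared groups alone OXSR1 (0.00818), ITGB1 (0.00943) and ERG (0.012). With each library left out in turn, the log2 fold changes that took both signs ran between these ends: WNK1 (-0.0734 to 0.14), OXSR1 (-0.0558 to 0.0303), FN1 (-0.0232 to 0.14), LOX (-0.0893 to 0.24), MMP13 (-0.15 to 0.0135), ATF3 (-0.00928 to 0.13), MKI67 (-0.0618 to 0.14), ITGB1 (-0.0796 to 0.0343), KDR (-0.0949 to 1.91) and ERG (-0.21 to 0.11). List medians moved by more than 1 SD in 13 of 578 cases. Depth limits genes with few reads, such as KDR and VWF.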

Other observations

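Over all tested genes, the median Euclidean distance between a WT Sor library and a WNK2 trans Ctr library was 83.4 on the log2 CPM scale, against 53.6 between WT Sor libraries and 73.5 between WNK2 trans Ctr libraries. WT Sor libraries lay at a median of 90.2 from WT Ctr libraries, and WT Ctr libraries at 88.1 from WNK2 trans Ctr libraries. WT Ctr libraries lay at a median of 96 from each other (72 to 116), above both of these medians.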
